A study of Rattus norvegicus with 12 samples.

Results

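The chemokine ligand genes of NRK cells were taken as every gene whose symbol in the study's lists of changed genes begins with Ccl, Cxcl or Cx3cl and a digit. The rule found 6 of the 20842 genes in the count table, Ccl21, Ccl27, Cxcl3, Cxcl10, Cxcl12 and Cxcl13, so the limit of 10 members was not reached. Cxcl10 and Cxcl13 came from the list of VAMP7KO against wild type (WT), both as lower in VAMP7KO, and Ccl21, Cxcl12, Cxcl3 and Ccl27 from the list of ATG5KO against WT, all as higher in ATG5KO. The second list was read in part, and ligand genes further down it were not analysed here. The values that chose a gene are given below as a description, with no test.

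NRK (Normal Rat Kidney) is an established rat kidney cell line that the labels call epithelial. Polyadenylated RNA was sequenced from WT cells, from VAMP7KO cells, which lack the vesicle fusion protein VAMP7, and from ATG5KO cells, which lack ATG5, a protein needed to build autophagosomes, with 4 libraries for each genotype and 12 in all. The knockouts were made with CRISPR-Cas9 and each line was grown from a single sorted cell, so a genotype and its clone cannot be told apart, and WT cells were the parental line. All cells were kept in complete growth medium with no treatment, and the study asked how loss of each protein alters the cell's RNA. Replicates 1 and 2 of every genotype stood apart from replicates 3 and 4. The deviations from the genotype mean correlated at r between 0.536 and 0.689 for libraries of the same set and between -0.694 and -0.552 for libraries of different sets. The labels do not say what separates the sets, so the members' values are also given within them. Each set held 2 libraries of a genotype and no set was repeated. The p-values within sets, between sets and for differences of effects thus measure only the spread between libraries of a set.

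Total counts ran from 21090858 to 31525111 per library, so 3 counts, taken here as the floor, were worth 0.0952 to 0.142 CPM (counts scaled to library size, with TMM normalization). Vamp7, the targeted gene, was at 111.1 ± 3.26 CPM in WT (SD, n = 4), 46.2 ± 5.17 in VAMP7KO and 128.2 ± 2.15 in ATG5KO. Among the genes with a symbol, the epithelial keratin Krt8 was at 777 ± 107 CPM in WT (SD, n = 4) and the collagen gene Col1a1, a fibroblast marker, at 858 ± 446 CPM. Symbols were known only for 1977 genes, those in the study's lists, so most defining markers of kidney epithelium could not be looked up.

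Chemokines are small secreted proteins that direct the movement of leukocytes and other cells through receptors coupled to G proteins. CXC ligands such as Cxcl3, Cxcl10, Cxcl12 and Cxcl13 and CC ligands such as Ccl21 and Ccl27 are told apart by the spacing of their first cysteines. Homeostatic ligands, among them Ccl21, Cxcl12 and Cxcl13, position cells in resting tissue, whereas inflammatory ligands such as Cxcl3 and Cxcl10 are induced by cytokines through NF-kB or interferon signalling. After secretion, ligands are held on cell surface glycans, trimmed by proteases and removed by scavenger receptors.

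Promoter sequences of RefSeq on GRCr8, windows of 300 bases that end shortly after the start, were available for 5 of the 6 genes. They are shown for Cxcl10, the only one of these 5 whose promoter holds letters of an interferon or NF-kB type motif, and for Ccl21 and Cxcl12, the genes with the steepest rise in ATG5KO. Capitals in Cxcl10 mark, from the 5′ end, a match to an interferon response type motif (GAAA repeated after 2 free bases), a match to an NF-kB type motif (GGG and TTCC with 3 free bases between them), TATAAA, and a pair of overlapping matches to the NF-kB type motif on opposite strands. The other sequences hold no match and are in lower case.
Cxcl10 (chr14:15988816-15989115, plus strand): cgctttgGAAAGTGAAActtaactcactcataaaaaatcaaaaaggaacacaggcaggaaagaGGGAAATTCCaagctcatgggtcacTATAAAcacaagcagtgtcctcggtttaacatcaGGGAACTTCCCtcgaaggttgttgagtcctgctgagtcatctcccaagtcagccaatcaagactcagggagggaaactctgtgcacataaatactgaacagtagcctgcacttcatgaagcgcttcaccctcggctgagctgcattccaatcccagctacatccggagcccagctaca
Ccl21 (chr5:61777466-61777765, minus strand): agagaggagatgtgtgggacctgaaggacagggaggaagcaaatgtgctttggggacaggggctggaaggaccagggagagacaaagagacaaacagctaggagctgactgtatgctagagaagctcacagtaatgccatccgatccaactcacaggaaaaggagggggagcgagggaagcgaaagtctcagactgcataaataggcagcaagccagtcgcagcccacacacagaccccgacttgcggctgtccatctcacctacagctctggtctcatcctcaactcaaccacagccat
Cxcl12 (chr4:152060531-152060830, plus strand): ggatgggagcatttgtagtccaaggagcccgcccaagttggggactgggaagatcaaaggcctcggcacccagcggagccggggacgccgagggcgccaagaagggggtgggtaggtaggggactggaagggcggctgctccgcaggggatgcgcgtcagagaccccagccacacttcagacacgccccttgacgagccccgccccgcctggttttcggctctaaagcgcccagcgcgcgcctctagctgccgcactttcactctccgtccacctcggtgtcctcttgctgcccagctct
In Cxcl10, the interferon response type match GAAAGTGAAA began at position -243 from the start, TATAAA at -162, and the NF-kB type matches GGGAAATTCC, GGGAACTTCC and GGAACTTCCC at -187, -128 and -127. Searched on both strands of 33469 promoters of the same length, the interferon response type motif was found in 3.92%, the NF-kB type motif in 5.37% and TATAAA in 14.2%. A second NF-kB type motif (GGG and TTTCC with 2 free bases between them) was found in 1.53% of promoters and in none of the 5 members. TATAAA was also present in the Cxcl13 promoter, at -33. The motif with TTCC and TATAAA were added after the sequences had been seen. Cxcl12 had a promoter rich in CG, with 66.7% G or C and 23 CpG sites, against 54.3% and 6 in Ccl21, 47.7% and 6 in Cxcl10, and medians of 51.7% and 7 over all promoters. A match describes letters and not a binding site.

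In each of the 6 genes, every VAMP7KO library was below every ATG5KO library. Of the 13141 genes tested, 15.3% had all 4 VAMP7KO libraries below all 4 ATG5KO libraries, and all 5 members that passed the filter on low counts were among them. Each member had been chosen for a low level in VAMP7KO or a high level in ATG5KO, so nothing is read from this order. Every ATG5KO library was above every WT library for Ccl21, Cxcl12, Cxcl3 and Ccl27, the 4 genes chosen by that comparison, where 14.9% of all genes tested had that order. In bulk RNA, fewer cells of a kind and less RNA per cell cannot be told apart.

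**Figure D1:**
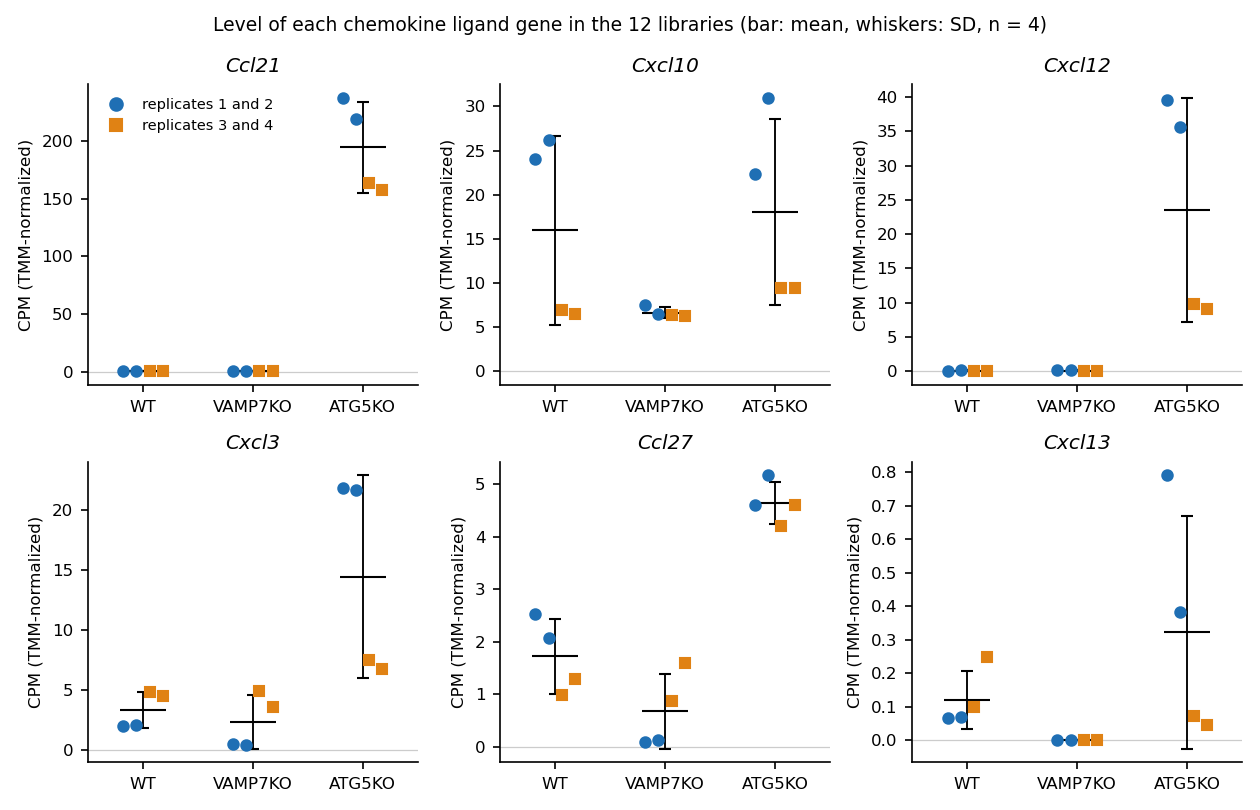
Level of each chemokine ligand gene (CPM, TMM-normalized, linear axes from 0 with a different range in each panel) in WT, VAMP7KO and ATG5KO cells. Points are libraries, circles for replicates 1 and 2 and squares for replicates 3 and 4, bars are means and whiskers are SD (n = 4), and the ATG5KO libraries of Ccl21 lie between 158 and 237.6 CPM while those of WT and VAMP7KO lie below 0.6 CPM.

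Ccl21 (ENSRNOG00000034290, band 5q22) encodes the ligand of CCR7 that lymphatic vessels and lymph node stroma use to draw in dendritic cells and T cells. In ATG5KO, 5115, 6330, 4568 and 3430 counts were found in replicates 1 to 4, or 237.6, 219.5, 164.1 and 158 CPM. In WT the counts were 17, 11, 2 and 2, and in VAMP7KO 9, 4, 5 and 2. ATG5KO thus stood far above both other genotypes in every library, whereas WT and VAMP7KO overlapped near the floor. The log2 fold change of ATG5KO against WT was 9.49 ± 0.25 (SE). In replicates 1 and 2 the ratio of mean CPM was 478, and in replicates 3 and 4, where both WT libraries were at the floor, ATG5KO was at least 1567-fold higher (floor of 3 counts per library). Ccl21 passed the filter on low counts only through ATG5KO, so nothing is read from the fitted log2 fold change of VAMP7KO against WT, -0.50 ± 0.50 (SE, edgeR adjusted p = 0.516).

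Between the sets, Ccl21 was lower in replicates 3 and 4 than in replicates 1 and 2 of ATG5KO by a modest amount (log2 difference -0.50 ± 0.08, SE, edgeR adjusted p = 3.13e-05). WT went from 17 and 11 counts to 2 and 2 (-2.73 ± 0.52, SE, edgeR adjusted p = 0.000204), and VAMP7KO from 9 and 4 to 5 and 2 (-0.87 ± 0.55, SE, edgeR adjusted p = 0.245). As Ccl21 passed the filter only through ATG5KO, nothing is read from these fitted values of WT and VAMP7KO. The fitted difference of the ATG5KO effect between the sets, 2.22 ± 0.54 (SE, edgeR adjusted p = 0.00479), depends on the prior count, since both WT libraries of the second set were at the floor.

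Cxcl12 (ENSRNOG00000013589, band 4q42), whose product binds CXCR4 and the scavenger receptor ACKR3 and retains stem cells and lymphocytes in stroma, was almost absent outside ATG5KO. The counts were 1, 5, 1 and 0 in WT and 5, 6, 2 and 0 in VAMP7KO, against 851, 1026, 273 and 197 in ATG5KO. In CPM, ATG5KO held 39.5, 35.6, 9.81 and 9.08, the first set well above the second. The log2 fold change of ATG5KO against WT was 8.53 ± 0.34 (SE). In replicates 3 and 4, with the other genotypes at the floor, ATG5KO was at least 91.9-fold higher than WT and at least 81.5-fold higher than VAMP7KO. Cxcl12, too, passed the filter only through ATG5KO, and nothing is read from the fitted value of VAMP7KO against WT, 1.01 ± 0.64 (SE, edgeR adjusted p = 0.283), with at most 6 counts per library.

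Within ATG5KO, Cxcl12 fell between the sets by 1.99 on the log2 scale (SE 0.16, edgeR adjusted p = 1.19e-08). In VAMP7KO the counts went from 5 and 6 to 2 and 0 (-2.33 ± 0.94, SE, edgeR adjusted p = 0.0438) and in WT from 1 and 5 to 1 and 0 (-2.30 ± 1.22, SE, edgeR adjusted p = 0.111). Both rest on few counts in a gene that passed the filter only through ATG5KO, and nothing is read from them. The fitted differences of the knockout effects between the sets, -0.03 in VAMP7KO and 0.31 in ATG5KO (edgeR adjusted p = 0.984 and 0.816), rest on these few counts.

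Cxcl10 (ENSRNOG00000022256, band 14p22) encodes the interferon-induced ligand of CXCR3, which recruits activated T cells. WT libraries held 24.05, 26.25, 7.0 and 6.53 CPM and ATG5KO libraries 22.39, 30.93, 9.48 and 9.40 CPM. VAMP7KO libraries held 7.55, 6.47, 6.36 and 6.25 CPM. The first set was thus high in WT and ATG5KO and low in VAMP7KO, while in the second set the 3 genotypes lay close together. The log2 fold change of VAMP7KO against WT was -0.96 ± 0.31 (SE) over all replicates, -1.83 ± 0.14 in replicates 1 and 2, where VAMP7KO held 27.9% of the WT mean, and -0.10 ± 0.16 in replicates 3 and 4, where it held 93.2%. The difference between the sets, 1.73 ± 0.22 on the log2 scale, passed the test (SE, edgeR adjusted p = 2.31e-05).

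In WT, Cxcl10 was lower in replicates 3 and 4 by 1.89 on the log2 scale (difference -1.89 ± 0.14, SE, edgeR adjusted p = 3.70e-09), and in ATG5KO by 1.5 (difference -1.5 ± 0.14, SE, edgeR adjusted p = 1.14e-07). VAMP7KO gave -0.16 ± 0.16 (SE, edgeR adjusted p = 0.42). ATG5KO did not differ detectably from WT over all replicates (0.24 ± 0.30, SE, log2, edgeR adjusted p = 0.537). Within replicates 3 and 4 it was higher by 0.48 ± 0.15 (SE, log2, edgeR adjusted p = 0.0135), but the test of the difference between the sets did not pass (0.39, edgeR adjusted p = 0.164) unless ATG5KO replicate 2 was left out (0.66, edgeR adjusted p = 0.0142). Cxcl10 lies within the annotated span of Art3 in RefSeq, and the strand setting of the counting is not given in the sources used here.

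Cxcl3 (ENSRNOG00000028043, band 14p22), a neutrophil attractant that signals through CXCR2, went opposite ways between the sets in different genotypes. WT libraries held 1.99, 2.04, 4.83 and 4.46 CPM, VAMP7KO libraries 0.468, 0.452, 4.88 and 3.58 CPM, and ATG5KO libraries 21.8, 21.7, 7.51 and 6.73 CPM. In the first set the 3 genotypes were separate, with VAMP7KO lowest and ATG5KO highest. In the second set VAMP7KO and WT overlapped and ATG5KO was above both. From the first set to the second, the level rose in WT by 1.20 ± 0.18 on the log2 scale (SE, edgeR adjusted p = 2.13e-05) and in VAMP7KO by 3.19 ± 0.26 (SE, edgeR adjusted p = 1.07e-08). In ATG5KO it fell by 1.61 (SE 0.14, edgeR adjusted p = 6.33e-08).

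The log2 fold change of Cxcl3 in ATG5KO against WT was 2.34 ± 0.74 (SE) over all replicates, 3.43 ± 0.17 in replicates 1 and 2 and 0.62 ± 0.16 in replicates 3 and 4. The difference between the sets was -2.81 ± 0.23 (SE, edgeR adjusted p = 1.34e-07). VAMP7KO against WT gave -0.59 ± 0.74 (SE, log2, edgeR adjusted p = 0.61) over all replicates. In replicates 1 and 2 it gave -2.12 ± 0.29 (SE, edgeR adjusted p = 1.14e-05), with VAMP7KO at 22.8% of the WT mean, and in replicates 3 and 4 -0.13 ± 0.17 (SE, edgeR adjusted p = 0.63). The difference between these effects, 1.99 ± 0.34 on the log2 scale, passed the test (SE, edgeR adjusted p = 0.000439).

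Ccl27 (ENSRNOG00000039530, band 5q22) encodes a ligand of CCR10, best known from skin keratinocytes. ATG5KO libraries held 4.60, 5.17, 4.2 and 4.61 CPM and WT libraries 2.53, 2.08, 0.986 and 1.28 CPM. VAMP7KO libraries held 3, 3, 24 and 39 counts, or 0.10, 0.136, 0.867 and 1.60 CPM. ATG5KO was the most even genotype, and VAMP7KO was at the floor in the first set and level with WT in the second. In replicates 1 and 2, WT was at least 19.5-fold higher than VAMP7KO and ATG5KO at least 41.4-fold higher (floor of 3 counts per library).

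Over all replicates, the log2 fold change of Ccl27 was 1.42 ± 0.56 (SE) in ATG5KO against WT and -1.43 ± 0.66 (SE, edgeR adjusted p = 0.147) in VAMP7KO against WT. The latter passed with DESeq2 (-1.63, DESeq2 adjusted p = 0.0473) and in edgeR without VAMP7KO replicate 4 (-2.26, adjusted p = 0.0488). Within replicates 1 and 2, VAMP7KO gave a fitted -4.27 ± 0.45 (SE, edgeR adjusted p = 7.06e-07). Within replicates 3 and 4 it gave 0.11 ± 0.32 (SE, edgeR adjusted p = 0.848). The difference of 4.37 ± 0.59 between them passed the test (SE, log2, edgeR adjusted p = 4.77e-05). The level rose between the sets in VAMP7KO (log2 difference 3.35 ± 0.51, SE, edgeR adjusted p = 2.55e-05) and fell in WT (log2 difference -1.03 ± 0.29, SE, edgeR adjusted p = 0.00481), while ATG5KO gave -0.16 ± 0.23 (SE, edgeR adjusted p = 0.603). Without WT replicate 3 the WT difference was -0.86 (edgeR adjusted p = 0.0568). ATG5KO against WT gave 1.08 ± 0.24 in the first set and 1.95 ± 0.27 in the second (log2, SE), and the difference did not pass (0.87, edgeR adjusted p = 0.088).

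Ccl27 lies beside Il11ra1, the receptor subunit for interleukin 11, and their RefSeq spans overlap by 5 bases. It shares 3344 bases with another RefSeq gene, LOC102547621, and with the strand setting of the counting not given in the sources used here, reads of that stretch could not be told apart. Il11ra1 was at 70.1, 73.6, 29.1 and 27.9 CPM in WT, 102.8, 127.5, 44.2 and 41.4 CPM in VAMP7KO, and 319.7, 278.8, 110.8 and 105.4 CPM in ATG5KO. It was higher in the first set of each genotype. In VAMP7KO it rose against WT (log2 fold change 0.63 ± 0.08, SE, edgeR adjusted p = 0.000485), where Ccl27 did not pass the test. For every 100 CPM of Il11ra1, Ccl27 held 2.82 to 4.60 CPM in WT and 1.44 to 4.37 CPM in ATG5KO, but 0.0975 and 0.107 CPM in VAMP7KO replicates 1 and 2, against 1.96 and 3.87 CPM in replicates 3 and 4. Reads of near-identical gene copies, known for Ccl21 and Ccl27 in the mouse, were not separated here.

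**Figure D2:**
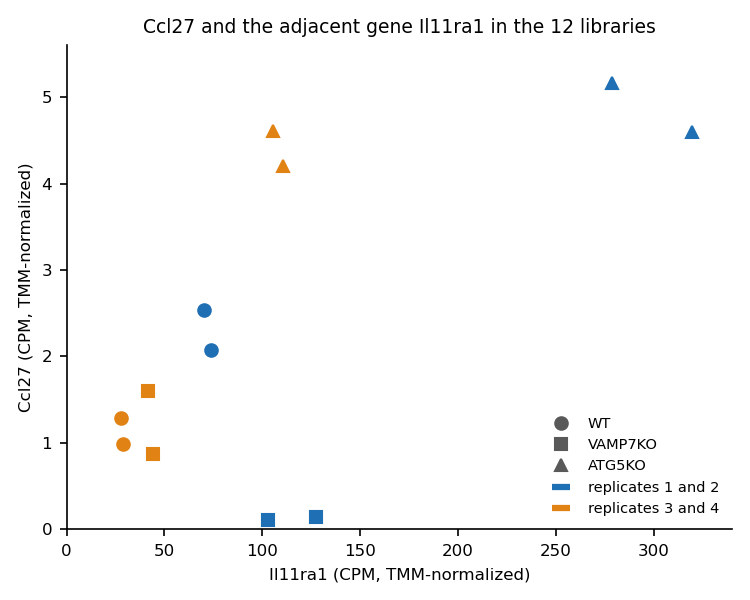
Ccl27 against its neighbour Il11ra1 (both CPM, TMM-normalized) in the 12 libraries, with symbols for genotype and colours for replicate set. VAMP7KO replicates 1 and 2 lie at 0.10 and 0.136 CPM of Ccl27 beside 102.8 and 127.5 CPM of Il11ra1, below all other libraries on the Ccl27 axis.

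Cxcl13 (ENSRNOG00000024899, band 14p22), the CXCR5 ligand that gathers B cells into follicles, was the scarcest in counts. WT libraries held 2, 2, 3 and 7 counts, ATG5KO libraries 17, 11, 2 and 1, and all 4 VAMP7KO libraries 0. A count of 0 allows up to 3 counts, so a single VAMP7KO library could not be told from the 3 WT libraries with 2 or 3. Every VAMP7KO library was below every WT library, as for 8.74% of all genes tested, but this comparison had chosen Cxcl13 and no p is given for it. Cxcl13 did not pass the filter on low counts and was the sole member with no value in the fit of all 12 libraries. In replicates 1 and 2, ATG5KO held 17 and 11 counts against 2 and 2 in WT, at least 5.71-fold higher (floor of 3 counts per library). In a fit of these replicates only, Cxcl13 passed the filter only through ATG5KO. Nothing is read from its log2 fold change there, 2.95 (edgeR adjusted p = 0.00738). Over all 12 libraries, looser filters gave 1.04 with every gene of at least 1 count and 1.14 with at least 0.5 CPM in 1 library (edgeR adjusted p = 0.54 and 0.356). In replicates 3 and 4, ATG5KO held 2 and 1 counts against 3 and 7. The sets thus went opposite ways, and over both together, a test that ignores the sets gave a mean difference of 0.201 CPM (higher in 10 of 16 pairs of libraries, exact two-sided permutation test, p = 0.371, smallest possible p = 0.0286, n = 4).

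Over the 5 genes fitted, none was called in VAMP7KO against WT at an edgeR adjusted p under 0.05, where 22.9% of all genes were. At an unadjusted p under 0.05 there was 1 (Cxcl10, which this comparison had chosen), and DESeq2 called 2 (Cxcl10 and Ccl27). The shares of all genes at an unadjusted p under 0.05 and under DESeq2 are not given, so nothing is read from such counts here. Ccl21 and Cxcl12 were near the floor in both VAMP7KO and WT and could hardly be called, and with WT and VAMP7KO libraries alone 3 members passed the filter. The median log2 fold change of the 5, -0.59 beside 0.00 for all genes, includes these 2. In ATG5KO against WT, 3 were called, all higher, against 46.3% of all genes in either direction, and all 3 had been chosen by that comparison. The difference of the VAMP7KO effect between the sets was called for 3 of 5 (Cxcl10, Cxcl3 and Ccl27), all toward a higher value in replicates 3 and 4, where 8.97% of all genes were called in that direction and 16.5% in either. The difference of the ATG5KO effect was called for 2 of 5 (Cxcl3 and Ccl21, in opposite directions), against 28.9% of all genes, and that of Ccl21 rests on WT libraries at the floor. Within replicates 1 and 2, Cxcl3 and Ccl27, which VAMP7KO had not chosen, were called lower in VAMP7KO than in WT, where 41.9% of all genes were called. Within replicates 3 and 4 no member was called in VAMP7KO (edgeR, 0 also at an unadjusted p under 0.05), where 26.5% were. Of the genes fitted, Cxcl10 alone was not chosen by ATG5KO against WT, and there it was called within replicates 3 and 4, as were 57% of all genes, and not within replicates 1 and 2, where 49.4% were. The values printed in the study's lists already show the sets, so these tests are not independent of the choice.

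**Figure D3:**
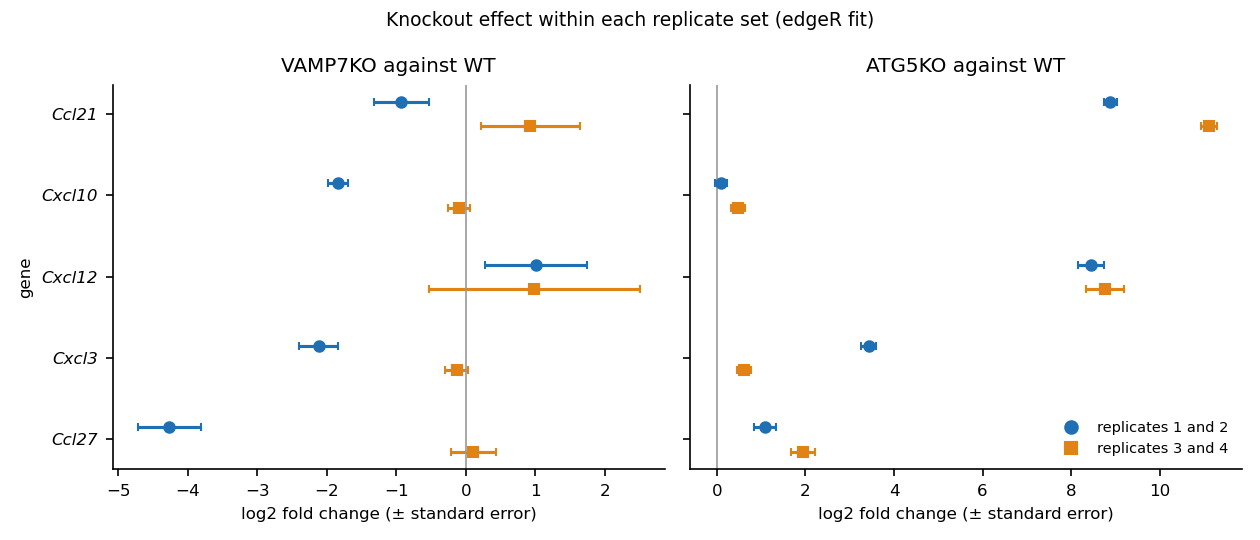
Log2 fold change of each tested ligand gene in VAMP7KO (left) and ATG5KO (right) against WT, fitted within replicates 1 and 2 (circles) and within replicates 3 and 4 (squares), with whiskers for the standard error. Cxcl10, Cxcl3 and Ccl27 lie between -1.83 and -4.27 in VAMP7KO replicates 1 and 2 and near 0 in replicates 3 and 4.

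The level itself differed between the sets for most tested members, as for most genes. In WT, 4 of 5 were called (Cxcl3 higher in replicates 3 and 4, and Ccl21, Cxcl10 and Ccl27 lower) where 61.9% of all genes were. In VAMP7KO, 3 of 5 were called (Cxcl3 and Ccl27 higher, Cxcl12 lower) against 56.1%. The call of Cxcl12 there (edgeR adjusted p = 0.0438) rests on 5, 6, 2 and 0 counts, and was lost without VAMP7KO replicate 2 or 4 (edgeR adjusted p = 0.157 and 0.221), without any single ATG5KO library and with DESeq2 (adjusted p = 0.0503 to 0.052). Ccl21 in WT and Cxcl12 in VAMP7KO passed the filter only through ATG5KO, and nothing is read from their calls. In ATG5KO, 4 of 5 were called (Ccl21, Cxcl10, Cxcl12 and Cxcl3, all lower) against 52.1% in either direction and 27.6% lower.

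**Figure D4:**
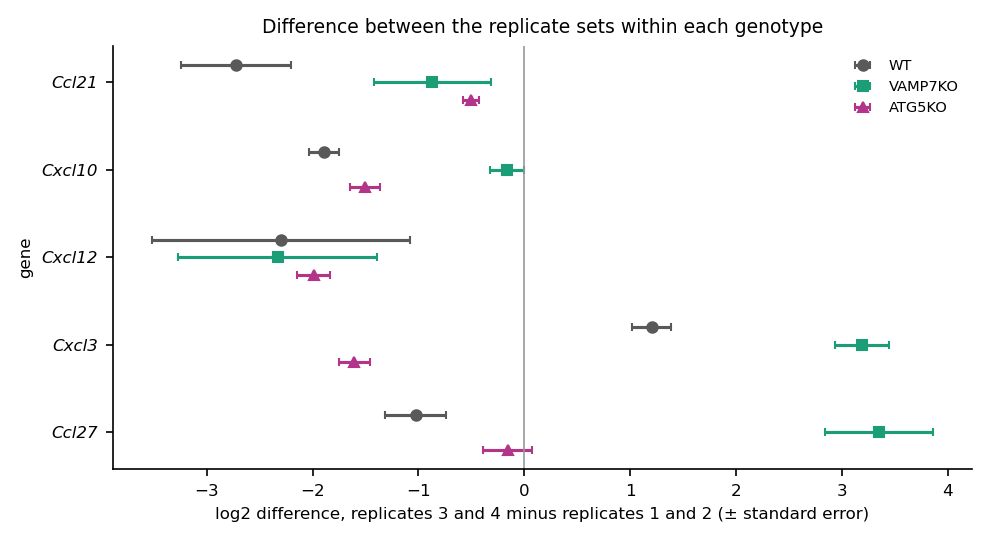
Log2 difference between replicates 3 and 4 and replicates 1 and 2 of each tested ligand gene within WT (circles), VAMP7KO (squares) and ATG5KO (triangles), with whiskers for the standard error. Cxcl3 lies at 1.20 in WT, 3.19 in VAMP7KO and -1.61 in ATG5KO, and Ccl27 at 3.35 in VAMP7KO alone lies above 0.

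The genes whose pattern over the 12 libraries was most like each ligand were ranked by Pearson r of log2 CPM among 1309 genes with a symbol (1310 for Cxcl13), as a description of libraries that share genotype and set. Ccl21 was closest to Musk (r = 0.995), Slfn5 (0.995) and She (0.994). Cxcl12 was closest to Flt3 (0.995), Ptgs2 (0.990) and Mfrp (0.990). Cxcl10 was closest to the interferon-induced gene Mx2 (0.955), then Bid (0.940) and Anpep (0.933). Cxcl3 was closest to Rab15 (0.939), Vgll3 (0.930) and Adcy3 (0.913), and Ccl27 to Angptl2 (0.971), Hsd11b1 (0.960) and Epsti1 (0.951). Cxcl13 had the loosest matches, Hspb7 (0.868), Nfkbie (0.845), an inhibitor of NF-kB, and Ier5 (0.835).

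Of the partners of these ligands, 2 of 24 chemokine receptor genes could be identified. Ackr4, a scavenger receptor that takes up Ccl21, was at 9.49, 8.97, 15.6 and 13.9 CPM in WT, 16.7, 18.7, 29.0 and 31.5 CPM in VAMP7KO and 9.29, 10.1, 14.0 and 15.8 CPM in ATG5KO. Every VAMP7KO library was above every WT library, as for 6.8% of all genes tested, with a log2 fold change of 0.99 ± 0.09 (SE, edgeR adjusted p = 9.55e-05), while ATG5KO, the genotype rich in Ccl21, gave 0.04 ± 0.09 (SE, edgeR adjusted p = 0.731). Cxcr5, the receptor of Cxcl13, held 3 to 25 counts per library, with a fitted log2 fold change of 1.43 ± 0.41 in ATG5KO against WT (SE, edgeR adjusted p = 0.0175). It passed the filter on low counts only with the ATG5KO libraries, so nothing is read from this test. All related genes named here were listed as changed by the study, so their counts are not independent evidence of a direction.

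Of 23 genes that trim or present ligands, 7 could be identified, and in VAMP7KO against WT 6 were called lower and 1 higher. In ATG5KO, 3 were called lower, 1 higher and 3 were not called. Of all genes, 22.9% and 46.3% were called in these comparisons, but genes could be identified only where the study had listed them as changed, so many calls are forced by that choice, here and in the lists below. Dpp4, the peptidase that removes the N-terminal residues of Cxcl10 and Cxcl12, was at 9.09, 7.62, 5.03 and 5.49 CPM in WT, 7.43, 10.1, 7.90 and 8.02 CPM in ATG5KO and 0.568, 0.407, 2.38 and 3.08 CPM in VAMP7KO. Its VAMP7KO libraries lay below each WT library, as for 8.74% of all genes tested, and below each ATG5KO library (log2 fold change against WT -2.16 ± 0.52, SE, edgeR adjusted p = 0.0146). As with Cxcl10, the gap was wider in replicates 1 and 2 (-4.05) than in replicates 3 and 4 (-0.95), a difference of 3.11 ± 0.35 (SE, log2, edgeR adjusted p = 8.84e-06). Unlike Cxcl10, Dpp4 was still called lower in replicates 3 and 4 (edgeR adjusted p = 0.00183), where 26.5% of all genes were called. Among the matrix metalloproteinases, which cleave several chemokines, Mmp3 fell by 4.32 on the log2 scale in VAMP7KO (SE 0.43, edgeR adjusted p = 0.000124) and gave 0.61 ± 0.36 (SE, edgeR adjusted p = 0.194) in ATG5KO. Within the sets it was -5.89 and -3.33 in VAMP7KO (difference 2.56, edgeR adjusted p = 2.94e-09), and in ATG5KO it was higher in both, by 0.26 (edgeR adjusted p = 0.00735) and by 1.09 (edgeR adjusted p = 1.08e-09). Mmp10 fell in both knockouts, with log2 fold changes of -4.36 in VAMP7KO and -2.46 in ATG5KO (edgeR adjusted p = 0.00179 and 0.00846). In VAMP7KO it was -7.71 in replicates 1 and 2 and -2.88 in replicates 3 and 4 (difference 4.84, edgeR adjusted p = 1.95e-10). Mmp13 and Mmp2 also fell in both, with log2 fold changes of -5.67 and -4.82 in ATG5KO and of -1.55 and -1.39 in VAMP7KO, where ATG5KO held 0 to 4 counts of Mmp2 per library. In ATG5KO, Mmp13 was -6.62 in the first set and -3.40 in the second (difference 3.22, edgeR adjusted p = 0.000395). Mmp1 fell in VAMP7KO (log2 fold change -3.0, edgeR adjusted p = 0.0199), where it held 0, 0, 3 and 4 counts against 12 to 17 per library in WT. In ATG5KO, Mmp1 was -1.31 in the first set and 1.065 in the second (difference 2.38, edgeR adjusted p = 0.0212). Mmp1 and Mmp2 passed the filter on low counts only through WT, so nothing is read from their calls or tests. The glypican Gpc6, a cell surface proteoglycan, rose in both, by 1.19 in VAMP7KO and by 1.52 in ATG5KO.

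**Figure D5:**
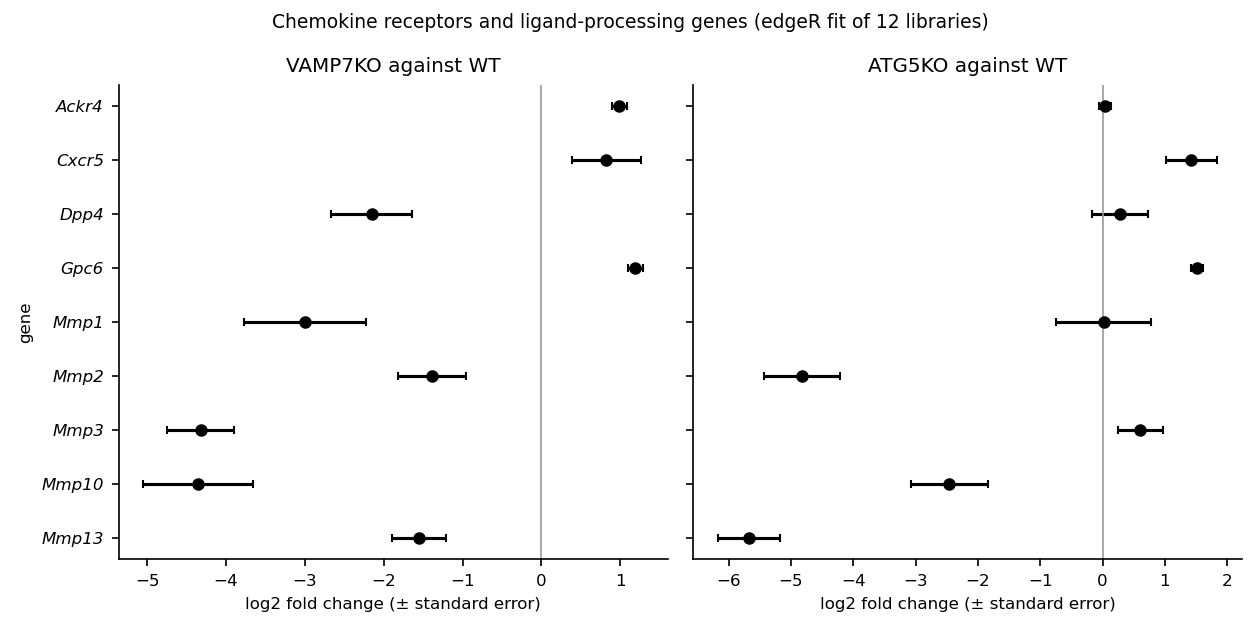
Log2 fold change against WT (edgeR fit of 12 libraries, whiskers for the standard error) of the chemokine receptor and ligand-processing genes that could be identified, in VAMP7KO (left) and ATG5KO (right). Ackr4 lies at 0.99 in VAMP7KO and 0.04 in ATG5KO, and Mmp3 at -4.32 and 0.61.

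Of 36 genes of NF-kB signalling, 13 could be identified and were tested. In VAMP7KO against WT, 8 were called lower, 1 higher and 4 were not called, against 22.9% of all genes called. The median log2 fold change was -0.80, beside 0.00 for all genes, which were not chosen as changed. The lowest were Nfkbid (-3.02, with 0 to 7 counts per library in VAMP7KO), an atypical inhibitor of NF-kB, and Birc3 (-1.91). The highest were Tnfrsf1b (1.06) and Csf3 (0.68, edgeR adjusted p = 0.45). In ATG5KO, 5 were called higher, 4 lower and 4 were not called, against 46.3% of all genes called, with Ptgs2, an inducible enzyme of prostaglandin synthesis, and the leukocyte adhesion molecule Vcam1 (4.57) at the top and Il6 (-1.32) and Birc3 (-1.30) at the bottom. Ptgs2 was at the floor in all WT libraries, and its mean over the ATG5KO libraries was at least 303-fold higher (floor of 3 counts per library), or at least 401-fold in replicates 1 and 2 and at least 206-fold in replicates 3 and 4. Of the genes named here, Ptgs2 and Csf3 passed the filter on low counts only through ATG5KO. Nothing is read from their calls or fitted values in either comparison.

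Of 41 genes of interferon signalling, 15 could be identified and 12 were tested. In ATG5KO against WT, 9 were called higher, 2 lower and 1 was not called, where 46.3% of all genes were called, with Dhx58 (3.83), a sensor of viral RNA, among the highest and Mx1 and Isg20 (-0.75) lowest. Mx1, an antiviral GTPase, was at the floor in all ATG5KO libraries, at least 165-fold lower than WT in replicates 1 and 2 and at least 17.4-fold lower in replicates 3 and 4 (floor of 3 counts per library). In VAMP7KO, 3 were called higher, 3 lower and 6 were not called, where 22.9% of all genes were called, with Ifit2 (1.57) among the highest and Mx1 (-5.59) and Mx2 (-2.81) lowest. Mx2, whose pattern was most like that of Cxcl10, was lower in VAMP7KO in replicates 1 and 2 (-3.61, edgeR adjusted p = 5.09e-08). It gave -0.03 in replicates 3 and 4 (edgeR adjusted p = 0.987), where WT held 3 and 5 counts, a difference of 3.58 (edgeR adjusted p = 0.00955). That likeness was ranked over these same libraries, so nothing is read from these tests of Mx2. Mx1 in VAMP7KO was at the floor in replicates 1 and 2, at least 170.1-fold lower than WT, and at -2.97 in replicates 3 and 4 (difference of the fitted values 5.36, edgeR adjusted p = 0.00122). Of the genes named here, Dhx58 passed the filter on low counts only through ATG5KO and Mx1 only through WT. Nothing is read from their calls or fitted differences. Ifit2 was higher in VAMP7KO in both sets (1.95 and 1.11). The median was 1.63 in ATG5KO and -0.34 in VAMP7KO, and Mx1 stays the lowest, so that the first value is the same, with Mx1 at its bound.

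Markers of other cell types moved with the genotypes too. Pdpn, a marker of lymphatic endothelium that fibroblasts also express, held 1 to 7 counts per library in WT, 0 in VAMP7KO and 713 to 1101 in ATG5KO, the genotype with Ccl21. Of 7 endothelial markers 2 were identified, and their summed level was 31.2 to 38.3 CPM in ATG5KO, 0.559 to 0.709 CPM in WT and 0.0452 to 0.10 CPM in VAMP7KO. Nearly all of the ATG5KO sum was Pdpn (34.6 ± 3.40 CPM, SD, n = 4), and the other marker, Cdh5, was at 0.334 ± 0.210 CPM in ATG5KO against 0.539 ± 0.0908 CPM in WT (SD, n = 4). The summed level of 5 of 8 fibroblast markers was 2177 to 3952 CPM in ATG5KO, 1039 to 3166 CPM in VAMP7KO and 523 to 1446 CPM in WT, higher in replicates 1 and 2 of each genotype. Most of each sum was Col1a1 and Col3a1. In VAMP7KO against ATG5KO, 2 of the 5 were called higher, 2 lower and 1 was not called, where 44.9% of all genes were called. Mean CPM of Lum was 167.8 in VAMP7KO and 68.8 in ATG5KO, and that of Thy1 was 0.113 and 143.4. The mean of Dcn was higher in replicates 3 and 4 of both knockouts. Of 8 leukocyte markers 3 were identified, summing to 2.96 to 14.5 CPM in WT, 0.614 to 0.969 CPM in VAMP7KO and 2.18 to 3.82 CPM in ATG5KO, and they went different ways. Ptprc was at 0 in all VAMP7KO libraries and at 0 to 2 counts per library in ATG5KO, against 84 to 371 counts in WT. Mean Cd3e was 0.742 CPM in VAMP7KO against 0.308 CPM in WT (edgeR adjusted p = 0.0224). Mean Csf1r was 2.71 CPM in ATG5KO against 0.744 CPM in WT (edgeR adjusted p = 0.0396), where it held 42, 41, 2 and 2 counts. Each passed the filter on low counts only through the genotype where it was higher, so nothing is read from these tests. Of 9 epithelial markers 2 were identified, summing to 647 to 877 CPM in WT, 452 to 572 CPM in VAMP7KO and 553 to 781 CPM in ATG5KO. The part of these markers in the ligand levels was not tested.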

How the data were processed

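Polyadenylated RNA (600 ng of total RNA per library, stranded kit, reads of 50 bases) was sequenced from 4 replicates of each of 3 genotypes. The deposited values are read counts per gene, not normalized. The authors used cutadapt 4.2 to trim reads, bowtie 2.2.8 to discard rRNA, STAR 2.7.10b to align to the mRatBN7.2 assembly, and htseq-count 0.13.5 with Ensembl 110 gene models. A missing separator in the header was handled by reading columns by position.

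Counts were tested here with edgeR 4.0.16 (R 4.3.3): TMM, filterByExpr by genotype (13141 genes), quasi-likelihood test on all 12 libraries with replicate number as a block, since the study adjusted for batch, and Benjamini-Hochberg adjustment. Set effects, knockout effects within a set and differences of effects came from a fit of 6 cells, genotype by set, with no block. As no set was repeated, the p-values of that fit measure only the spread within a set. Same-numbered libraries deviated together (r = 0.571 to 0.691), as did libraries of the same set with other numbers (0.536 to 0.689), so the numbers pair the libraries through the set. Standard errors are the log2 value divided by the square root of F. No 2 libraries agreed within sampling noise. RNA came from 1 dish per genotype, and the study calls its replicates independent. Bounds cover counting error only.

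Alternatives were DESeq2 1.42.0 (test and size factors), other filters, other blocks and samples, and leaving out each library. The code was tested on simulated data. Named genes were all members, Vamp7, Il11ra1, identified receptor and processing genes, the 2 highest and 2 lowest of the NF-kB and interferon lists, and the 3 most alike genes (at least 1 CPM on average, pseudocount 0.1 CPM). The values of 1 gene of the interferon list are not reported here. Single marker genes were named after their values were seen. The members and lists were chosen with earlier results of these data known. Symbols came from the study's lists of changed genes (1263 and 1427 rows read), whose fold changes and p-values were not used.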

Additional observations from a re-analysis of the deposited data

Results flagged for a closer look

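The effect of VAMP7 loss differed between the replicate sets for Cxcl10 (log2 difference 1.73), Cxcl3 (1.99) and Ccl27 (4.37), by the edgeR test of the difference. The effect of ATG5 loss differed for Cxcl3 (-2.81) and Ccl21 (2.22) by the same test, the latter with both WT libraries of replicates 3 and 4 at the floor.

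Single libraries stood apart in 2 of 18 groups of 4 libraries. Cxcl10 in VAMP7KO replicate 1 (7.55 CPM, the others 6.25 to 6.47) had a gap of 0.832 of the group's range, and Cxcl13 in WT replicate 4 (7 counts, the others 2 to 3) a gap of 0.83, both past Dixon's critical value for 4 libraries. Chance flags about 1 in 20 such groups.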

How the results depend on the processing

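Of 218 values of single members under other settings, 198 kept their direction and their side of the threshold, 14 newly passed, 3 no longer passed and 3 reversed. With each library left out, 452 of 480 kept both. The difference of the VAMP7KO effect between the sets was called for 3 members under every alternative run.

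The number of members called in VAMP7KO against WT rose from 0 to 2 with DESeq2, to 1 with every gene of at least 1 count, with at least 0.5 CPM in 1 library or with the set as block, and to 3 in replicates 1 and 2 only. It was 0 to 2 with single libraries left out, where Cxcl10 was called without replicate 3 or 4 of WT or VAMP7KO, and Ccl27 without VAMP7KO replicate 4. In ATG5KO against WT it went from 3 to 5 in replicates 1 and 2 only, where Cxcl13 passed the filter and was the fifth, and to 5 in replicates 3 and 4 only, and was 2 to 4 with single libraries left out. Cxcl3 was lost without replicate 1 or 2 of WT or ATG5KO (log2 fold change 1.63 to 2.15), and Ccl27 gained without WT replicate 1, VAMP7KO replicate 1 or VAMP7KO replicate 4. Cxcl3 and Ccl27 had been chosen by ATG5KO against WT, and Cxcl10 by VAMP7KO against WT. Their gains and losses in these comparisons, here and below, thus describe the settings and test nothing. Left-out libraries gave 3 to 5 members called between the sets in WT, 2 to 3 in VAMP7KO, 4 in ATG5KO, and 2 to 3 for the difference of the ATG5KO effect. The share of all genes called is not given for each alternative, so nothing is read from these moves, and their cause was not tested.

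Without the replicate block, the fold change of Cxcl3 in ATG5KO against WT was 2.11 and no longer called (2 members called in place of 3), and Cxcl10 in VAMP7KO against ATG5KO, at -1.44, was lost. No other call of a member changed without the block.

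The fold change of Ccl21 in VAMP7KO against WT turned to 0.93 in replicates 3 and 4 only and ranged from -0.77 to 0.049 with single libraries left out, and that of Ccl27 turned to 0.11 in replicates 3 and 4 only. For Cxcl12 the difference of the VAMP7KO effect between sets turned to 0.14 with DESeq2 and ranged from -3.22 to 2.18 with single libraries left out, and that of the ATG5KO effect from -1.15 to 2.55. With the libraries of WT and VAMP7KO alone, 3 members passed the filter. Depth limits Cxcl13 everywhere, and Ccl21 and Cxcl12 outside ATG5KO.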
